A study of Mus musculus with 8 samples.

Results

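The regions described here are stretches of open chromatin that were called as peaks in both samples of the medial ganglionic eminence (MGE) and in no other sample of a single-nucleus ATAC-seq study of the mouse embryonic forebrain. Peaks of all 8 samples on chromosomes 1 to 19 were merged wherever their intervals touched or overlapped, which gave 286181 merged regions, and 1741 of these held a peak of MGE replicate 1, a peak of MGE replicate 2 and no peak of any other sample. They are called MGE-only regions below. The study compared 4 wild-type (WT) regions with 2 samples each: the cortex (CTX), the MGE, the lateral ganglionic eminence (LGE) and the caudal ganglionic eminence (CGE). All samples were of E12.5 (days of embryonic development) except CTX replicate 2, which was of E14.5. The labels do not say whether the replicates came from separate embryos, so the spread between them may be technical. The peak calls that chose the regions rest on the counts of the MGE samples, so the number, width and level of the regions are descriptions and were not tested. Peak lists and counts were made for each sample alone, so a sample without a peak has no count for that stretch, and its accessibility there is unknown rather than 0.

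The ganglionic eminences are transient swellings of the ventral forebrain whose progenitor cells give rise to GABAergic neurons. The MGE is the source of cortical interneurons that later make parvalbumin or somatostatin, and it depends on the homeodomain transcription factor NKX2-1, whose gene is switched on in MGE progenitors under Sonic hedgehog signalling. Its targets include the LIM homeodomain genes Lhx6 and Lhx8, which act in interneurons and in forebrain cholinergic neurons. ATAC-seq marks chromatin that a transposase can enter, and open stretches far from gene starts often hold enhancers, the sequences that set where and when a gene is used. NKX2-type factors bind sites with the letters CAAGTG.

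Sequences of regions with a large mean level over the MGE samples are shown here, with and without the NKX2-type letters, read from GRCm38 in the plus strand, 5′ to 3′. Capitals mark each match of the NKX2-type letters CAAGTG or of the homeodomain letters TAATTA on either strand, so that CACTTG is the NKX2-type match on the minus strand. Regions are named by the nearest start of a protein-coding gene and a number along the chromosome. The region Slc26a3_1, with 1 of the 2 largest levels, is shown by its central 300 bases at chr12:31372392-31372691, and the region with the other, Cep83_1, by the bases about its match at chr10:94793183-94793208, since it falls in an exon of Plxnc1. The next 3 are the central 300 bases of regions with a large mean level whose nearest start is that of a gene of the lists used here: Nkx2-1_2 at chr12:56486499-56486798, Nkx2-1_3 at chr12:56493486-56493785 and Sox6_2 in an intron of Sox6 at chr7:115766457-115766756. In MGE replicate 2 alone, Nkx2-1_2 and Nkx2-1_3 lay below the median MGE-only region.
Slc26a3_1: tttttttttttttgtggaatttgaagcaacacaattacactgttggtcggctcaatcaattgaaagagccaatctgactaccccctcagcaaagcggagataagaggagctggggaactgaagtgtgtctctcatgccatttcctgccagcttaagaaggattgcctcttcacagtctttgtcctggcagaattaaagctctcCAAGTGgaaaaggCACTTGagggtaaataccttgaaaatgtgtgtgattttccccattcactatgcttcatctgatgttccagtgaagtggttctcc
Cep83_1: tgcttacatcCACTTGcatttcttct
Nkx2-1_2: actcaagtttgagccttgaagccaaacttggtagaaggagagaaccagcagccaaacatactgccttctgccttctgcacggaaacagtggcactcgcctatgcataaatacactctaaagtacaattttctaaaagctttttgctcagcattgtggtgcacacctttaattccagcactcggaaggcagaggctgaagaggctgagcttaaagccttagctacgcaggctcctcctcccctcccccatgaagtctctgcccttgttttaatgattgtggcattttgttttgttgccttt
Nkx2-1_3: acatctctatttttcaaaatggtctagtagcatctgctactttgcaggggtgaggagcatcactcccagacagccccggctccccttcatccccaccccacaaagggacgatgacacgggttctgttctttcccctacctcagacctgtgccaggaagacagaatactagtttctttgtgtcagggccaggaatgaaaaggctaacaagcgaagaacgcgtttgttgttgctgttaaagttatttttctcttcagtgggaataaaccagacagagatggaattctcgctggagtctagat
Sox6_2: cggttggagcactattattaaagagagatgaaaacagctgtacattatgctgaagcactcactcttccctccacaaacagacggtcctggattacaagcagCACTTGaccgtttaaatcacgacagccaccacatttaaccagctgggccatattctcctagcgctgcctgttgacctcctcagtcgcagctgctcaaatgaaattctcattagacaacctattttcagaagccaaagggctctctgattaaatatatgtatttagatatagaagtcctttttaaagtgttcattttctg
Slc26a3_1 held 2 NKX2-type matches, Cep83_1 and Sox6_2 held 1 each, and neither of the Nkx2-1 regions shown held a match of either set in its central bases.

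The following are matches in 6 of the 10 regions with the largest differences between classes of MGE nuclei, shown for holding a match, each the nearest to the centre with 20 bases on either side. Of the other 4, Dzip1l_1, Mov10l1_1 and Zcchc9_1 held neither set of letters in their central 300 bases, and Kcnmb3_1 held 1 homeodomain match and is not shown. Naa20_1 (chr2:145895282-145895327), Plppr1_2 (chr4:49105533-49105578) and Lhx8_1 (chr3:154303011-154303056) were higher in GABAergic-like nuclei. Nebl_1 (chr2:17584407-17584452), Isca2_1 (chr12:84776010-84776055) and Id2_1 (chr12:25215587-25215632) were higher in progenitor-like nuclei.
Naa20_1: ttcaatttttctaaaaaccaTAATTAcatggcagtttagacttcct
Plppr1_2: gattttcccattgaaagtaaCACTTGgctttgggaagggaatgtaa
Lhx8_1: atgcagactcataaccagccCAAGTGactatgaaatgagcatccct
Nebl_1: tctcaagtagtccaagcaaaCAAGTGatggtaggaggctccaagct
Isca2_1: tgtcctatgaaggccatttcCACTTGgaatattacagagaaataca
Id2_1: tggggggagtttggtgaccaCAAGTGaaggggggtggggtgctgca
Naa20_1 is shown by its homeodomain match and the other 5 by an NKX2-type match, which in Plppr1_2 and Isca2_1 lies outside the central 300 bases.

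The 2 MGE libraries differed in size and in their peak lists, which bears on every value below. MGE replicate 1 held 6845 nuclei, 138789944 counts in peaks and 105456 peaks, and MGE replicate 2 held 3465 nuclei, 77387940 counts and 163509 peaks. The other 6 samples held 4013 to 6577 nuclei, 80488152 to 138873845 counts and 103633 to 182638 peaks. The MGE libraries shared 27 nuclear barcodes, and pairs of libraries in the series shared 15 to 56. The label MGE was checked on the counts in peaks within 1000 bp of gene starts, as CPM, here the count scaled to the total of such counts in the library. At the starts of Nkx2-1 these were 803 and 554 in the MGE samples and 31.7 to 61.9 in the other 6, and at those of Lhx6 they were 405 and 368 against 37.6 to 61.3. Each MGE value lay above every other sample.

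The MGE-only regions were 1.85% of the 94250 merged regions with peaks in both MGE samples. Regions called in exactly both samples of another part of the forebrain numbered 8947 in CTX, 2889 in CGE and 66 in LGE. For the 24 pairs that join samples of different forebrain regions, the number called in exactly that pair ran from 4 to 3956 with a median of 269.5, and 5 such pairs lay above the 1741 of MGE. Those 5 pairs all included CGE replicate 2 or MGE replicate 2, both with long peak lists. MGE replicate 1 paired with any of the 6 samples of other regions gave 4 to 279. The number depended on single libraries: it was 16757 without MGE replicate 1, 3357 without MGE replicate 2 and 2823 without CGE replicate 2. Just outside the rule lay 2196 regions with peaks in both MGE samples and exactly 1 other sample, most often CGE replicate 2 (1049 regions), and least often LGE replicate 1 (4 regions).

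**Figure D1:**
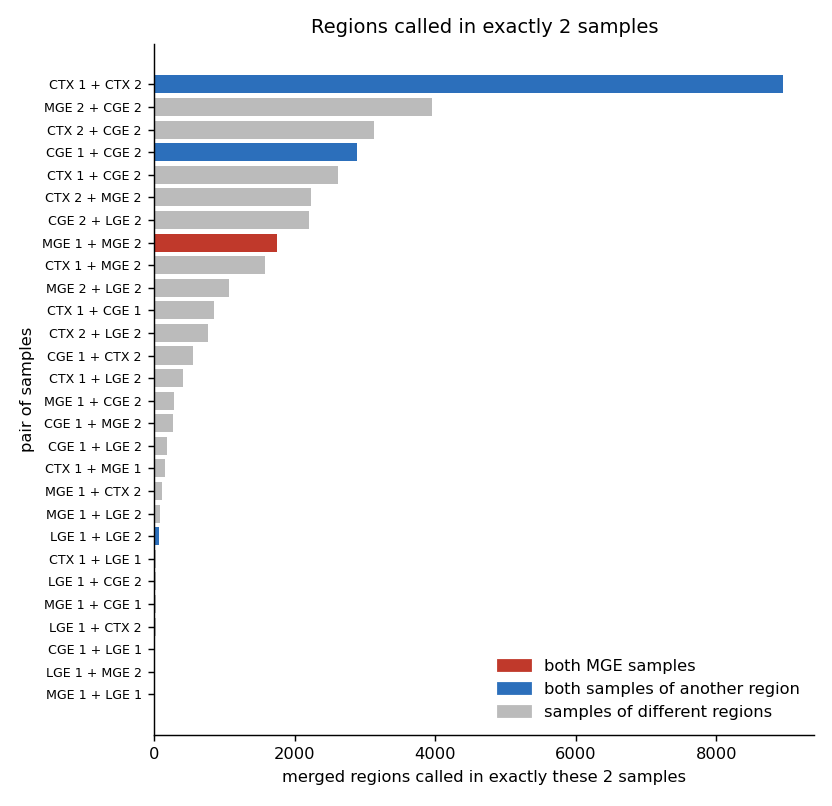
Number of merged regions (horizontal axis) called in exactly 2 samples, for each of the 28 pairs of samples (vertical axis), with the MGE pair in red, the other pairs from 1 forebrain region in blue and pairs from different regions in grey. The MGE pair holds 1741 regions, below the CTX pair at 8947, the CGE pair at 2889 and 5 of the 24 grey pairs, and above every grey pair that includes MGE replicate 1.

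The median width of MGE-only regions was 561 bp, with quartiles of 443 and 696 bp, against 1536 bp for the 66854 regions called in all 8 samples and 606.5 bp for the regions with 1 other sample. CTX-only regions had a median width of 628 bp, and CGE-only and LGE-only regions were narrower, at 421 and 440.5 bp. The widest were Dio3_1 at 3737 bp (chr12:110194281-110198017) and Mbip_3 at 2983 bp (chr12:56321373-56324355), both outside protein-coding genes, and the narrowest was Mitf_2 at 12 bp. Within 1000 bp of a protein-coding start lay 35 of the 1741 (2.01%), and the share was 1.53% without MGE replicate 1, 3.34% without MGE replicate 2, 4.54% within 2000 bp and 7.06% with the starts of all annotated genes. Of the rest 169 (9.71%) touched an exon, 763 (43.8%) lay in an intron and 774 (44.5%) lay outside protein-coding genes. Of the regions called in all 8 samples 22.2% lay at promoters, while the share was 1.96% in the CTX-only and 1.45% in the CGE-only regions. The median distance to the nearest start was 37381 bp, above the 20423.5 bp of regions called in all 8 samples and below the 50817 bp of CTX-only, 64097 bp of CGE-only and 47340.5 bp of LGE-only regions, and 764 regions lay farther than 50 kb from one. The low share at promoters was therefore shared with regions called only in the cortex or only in the CGE. The nearest region called in any other sample was a median of 1709 bp away, within 500 bp for 202 MGE-only regions and within 2000 bp for 942.

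The regions held a small part of the counts of each library. In MGE replicate 1 they took 0.178% of counts in peaks and in MGE replicate 2 0.309%. Levels below are CPM of all counts in peaks of that sample. The median region had 0.814 CPM and a count in 1.05% of nuclei of MGE replicate 1, and 1.40 CPM and a count in 1.56% of nuclei of MGE replicate 2. The regions with 1 other sample, just outside the rule, had medians of 0.850 and 1.27 CPM. A typical nucleus had a count in few of the 1741 regions, with a median of 14 regions in MGE replicate 1 and 25 in MGE replicate 2, and 1.49% and 0.866% of nuclei had none. Levels in the libraries ran together only in part, with a Spearman rho of 0.560 across regions, which share library and peak width and are not replicates. Of the 1703 regions with counts in both libraries, 863 were within 2-fold, and 28 and 10 regions had 0 counts in MGE replicate 1 and MGE replicate 2. The peak was under 100 bp wide in 286 regions of MGE replicate 1 and in 64 of MGE replicate 2, and the median length counted was 302 and 548 bp. Per kb of peak the median was 2.80 CPM in MGE replicate 1 and 2.46 CPM in MGE replicate 2, the other direction from the medians per region. The part of peak length in the difference in CPM was not tested. Only 326 regions had the larger CPM in MGE replicate 1.

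**Figure D2:**
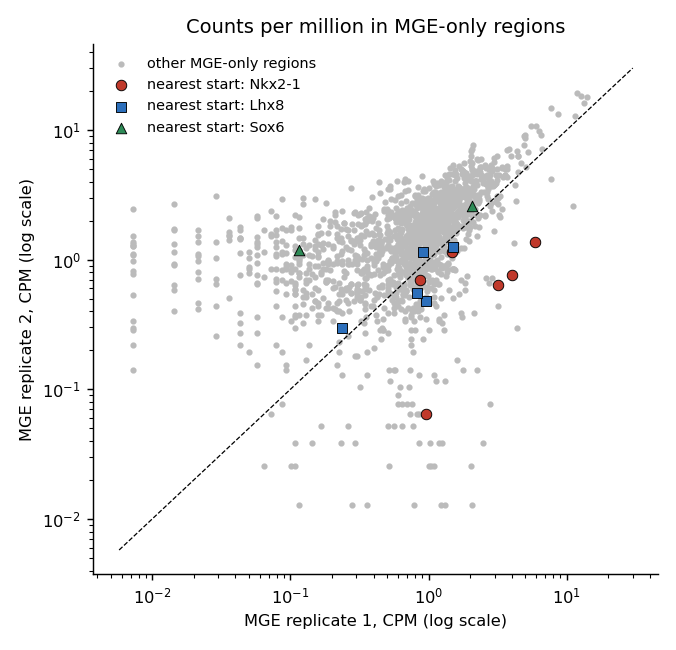
CPM of MGE-only regions in MGE replicate 1 (horizontal, log scale) and MGE replicate 2 (vertical, log scale), 1 point per region with counts in both libraries, with the regions nearest to Nkx2-1, Lhx8 and Sox6 marked and the dashed line at equal values. Most of the 1703 points lie above the line, while all 6 Nkx2-1 regions lie below it.

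The 8 regions with the largest mean CPM reached up to 19.1 CPM. Cep83_1, in an exon of the semaphorin receptor gene Plxnc1 (chr10:94792315-94793910), had 13.9 CPM in MGE replicate 1 and 18.1 CPM in MGE replicate 2, and 9.95% and 13.1% of nuclei had a count there. Slc26a3_1, upstream of an anion exchanger gene (chr12:31371874-31373210), had 11.9 and 19.1 CPM, with counts in 9.45% and 16.5% of nuclei. Fzd7_1, 15014 bp downstream of the start of the Wnt receptor gene Fzd7 (chr1:59497438-59498816), had 12.7 and 18.2 CPM. Each of these 3 regions was over 10 times the median region in both libraries. Pole4_1 (chr6:82581323-82582623) had 13.3 and 16.2 CPM, Vrk1_3 (chr12:106559000-106560331) 11.4 and 12.9, Sulf1_1 (chr1:12614987-12616873) 7.70 and 14.8, Tnpo3_1 (chr6:29620134-29621573) 8.68 and 13.3, and Aga_1 (chr8:53562145-53563122) 5.97 and 10.7. Of the 8, 7 lay outside protein-coding genes. Vrk1_3 lay 528283 bp from the nearest protein-coding start and 250 bp from that of the annotated gene Gm17033. The top 10% of regions by level held 32.6% of all MGE-only counts in MGE replicate 1 and 29.4% in MGE replicate 2.

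The nearest starts belonged to 1451 protein-coding genes, of which 220 were nearest to 2 or more MGE-only regions. Nkx2-1 and Lhx8 had the most, with 6 regions each, followed by Auts2, a regulator of neuronal development, Tbc1d22a, the kainate receptor gene Grik3 and the junction gene Ajap1 with 5 each. Mbip, the neighbour of Nkx2-1, the neurexin gene Nrxn3, Hmgb4 and the corepressor gene Tle3 had 4 each, as did Gm4791, Src, Qk and Tns1, whose regions had lower summed CPM. Genes differ in how many open regions lie near them. The 5 regions of Auts2 were 2.62% of the 191 regions called in both MGE samples that had Auts2 as the nearest start, while the 6 of Nkx2-1 were 42.9% of 14 and the 6 of Lhx8 27.3% of 22. For Mbip and Hmgb4 the shares were 19.0% of 21 and 22.2% of 18, and the 4 Hmgb4 regions all lay in introns of Csmd2.

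The 6 Nkx2-1 regions lay outside protein-coding genes across 83.1 kb of chromosome 12, and Nkx2-1_3 overlapped an annotated start of the pseudogene Sfta3-ps. Nkx2-1_2 (chr12:56485651-56487647) had 5.88 CPM in MGE replicate 1 and 1.36 CPM in MGE replicate 2. Nkx2-1_3 (chr12:56492996-56494275) had 4.02 and 0.762 CPM, and Nkx2-1_4 (chr12:56495054-56496397) had 3.18 and 0.633 CPM. These 3 lay 38709 to 47459 bp downstream of the start of Nkx2-1, and their peaks were 1280 to 1997 bp wide in MGE replicate 1 and 389 to 915 bp wide in MGE replicate 2. Nkx2-1_1 had 1.48 and 1.14 CPM, Nkx2-1_5 0.958 and 0.0646 CPM and Nkx2-1_6, the only one upstream of the start, 0.865 and 0.698 CPM. All 6 were higher in MGE replicate 1, against the direction of most MGE-only regions. The counts at the starts of Nkx2-1 were also higher in MGE replicate 1, at 803 against 554 CPM of counts at starts. In the neighbouring interval, Mbip_3, 21539 bp downstream of the start of Mbip, had 7.70 and 4.17 CPM.

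The 6 Lhx8 regions lay within 17.2 kb of chromosome 3, with 4 in introns of Lhx8 and 2 beyond its end. Lhx8_2 (chr3:154303739-154304351) had 1.51 and 1.25 CPM, Lhx8_3 (chr3:154307152-154307874) 0.908 and 1.15 CPM and Lhx8_4 (chr3:154309983-154310619) 0.951 and 0.478 CPM. Lhx8_5 had 0.821 and 0.556 CPM, and Lhx8_1 had 0.238 and 0.297 CPM. Lhx8_6 had 0 counts in a 3 bp peak of MGE replicate 1 and 1.29 CPM in MGE replicate 2. They differed from the Nkx2-1 regions in that 3 of 6, not all, were higher in MGE replicate 1. In all, 19 groups of 3 or more MGE-only regions had gaps of at most 50 kb between neighbours, among them the Lhx6 and Rbm18 interval, with 3 regions across 41.8 kb.

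Among the lists of genes, 9 of the 20 MGE genes on these chromosomes were nearest to an MGE-only region, with 24 regions in all, against 7.01% of the 20698 protein-coding genes. The 24 were 5.24% of the regions called in both MGE samples nearest to these genes, beside 1.85% over all genes. Besides Nkx2-1 and Lhx8 the genes were the neuregulin receptor gene Erbb4 with 3 regions, the transcription factor genes Sox6, Maf and Otx2 with 2 each, and Lhx6, Gbx2 and the semaphorin receptor gene Nrp1 with 1 each. Of the Sonic hedgehog pathway 2 of 12 genes had a region, the ligand gene Shh and the receptor gene Ptch1. Of the genes shared by GABAergic cells of all eminences 3 of 11 had one: Dlx1, a homeodomain factor of GABAergic progenitors, and Gad1 and Gad2, which encode the enzymes that make GABA. The LGE list had 3 of 14 (Foxp1, Bcl11b and Drd1) and the CGE list 2 of 8 (Prox1 and Npas1). As a share of the regions called in both MGE samples nearest to the genes, the MGE-only regions were 4.55% for the genes shared by GABAergic cells, 1.63% for the Sonic hedgehog, 1.48% for the LGE and 1.36% for the CGE list, the last 3 below the 1.85% over all genes. These lists were chosen with earlier results of these data known and genes differ in the number of regions near them, so the shares are a description.

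Sox6_2 and Otx2_1 lay above the upper quartile of MGE-only regions, 1.28 CPM in MGE replicate 1 and 2.26 CPM in MGE replicate 2, in both libraries. Sox6_2 (chr7:115766238-115766975) had 2.08 and 2.61 CPM, and Otx2_1 (chr14:48820728-48821308) 1.35 and 2.48 CPM. Otx2_2 had 0.533 and 2.95 CPM, Bcl11b_1 (chr12:107943916-107945203) 2.72 and 0.659 CPM, and Erbb4_3 (chr1:69123857-69124681) 0.735 and 2.51 CPM. Shh_1, 10451 bp downstream of the start of Shh (chr5:28455922-28456805), had 1.35 and 1.72 CPM. Gad1_1, at an exon of Gad1 (chr2:70575046-70575604), had 1.36 and 1.64 CPM, and Nrp1_1 (chr8:128483150-128483792) had 1.03 and 2.02 CPM. Lhx6_1, 8930 bp upstream of the start of Lhx6 (chr2:36114338-36114798), had 1.07 and 1.19 CPM and so was nearly level in the libraries.

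What the rule did not use is the DNA sequence, and there the MGE-only regions stood apart in the NKX2-type letters. Of their central 300 bases 37.4% held CAAGTG on either strand, against 18.5% of the central 300 bases of all 286181 merged regions. The share was 27.6% in regions called in both MGE samples and 1 other, 20.4% in those called in both MGE samples and 2 to 5 others, and 17.7% in regions called in all 8 samples away from promoters. It was 17.2% in CTX-only, 14.9% in CGE-only and 18.2% in LGE-only regions. The share thus fell step by step with the number of other samples that had a peak. Median width rose along the same steps, from 561 and 606.5 bp to 844 bp, and to 1536 bp over all regions called in all 8 samples. The part of width in the shares was not tested. Base composition differed little, with a median GC content of 47.0% in the MGE-only regions and 46.7% over all regions. The matches gathered at the middle: the 50-base bins on either side of the centre held 9.71 and 10.3 matches per 100 MGE-only regions, while the outermost bins held 3.56 and 2.76. In regions called in all 8 samples away from promoters the corresponding bins held 3.37 and 3.30 in the middle and 3.16 and 3.24 at the edges. These outermost bins, 450 to 500 bases from the centre, lie outside most MGE-only regions, whose upper quartile of width was 696 bp. With the larger width of regions called in all 8 samples, they often lie inside those regions, so the contrasts are not alike. Of the MGE-only regions 652 held a match, 136 held 2 or more, and the most in a region was 4. Of the 24 regions nearest to genes of the MGE list 7 held a match (29.2%), among them 2 of the 6 Nkx2-1 regions and 1 of the 6 Lhx8 regions. With the regions split by CPM in 4 bins of like size, the share with a match from the lowest bin up was 29.7%, 34.3%, 39.1% and 46.8%. These shares are descriptions without a test, and a match of letters is not a bound site.

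**Figure D3:**
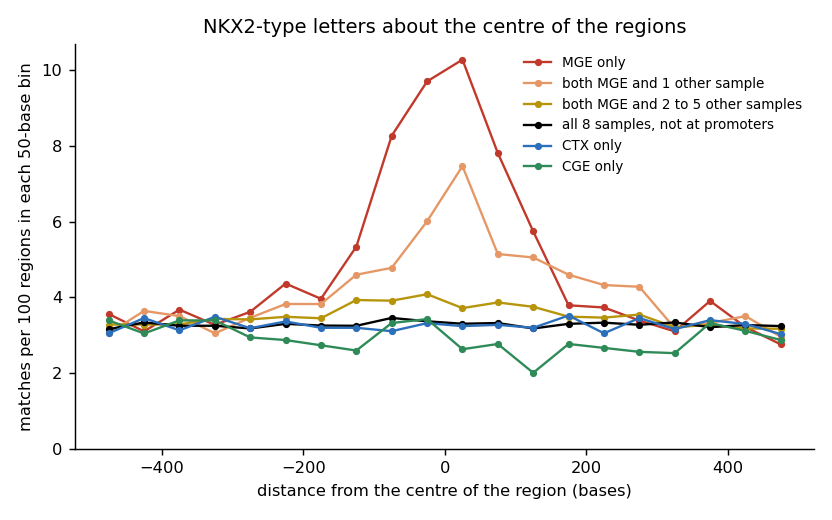
Matches of the NKX2-type letters per 100 regions in each 50-base bin (vertical axis) by distance from the centre of the region in bases (horizontal axis), with 1 line per kind of region. The MGE-only regions peak at 10.3 at the centre and the regions with 1 other sample at 7.47, while the regions called in all 8 samples away from promoters stay between 3.16 and 3.46 in the bins shown.

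The other letters searched differed less from all merged regions. The E-box CAGCTG was found in 28.9% of MGE-only regions and 21.5% of all regions, the E-box CAGATG in 22.3% and 27.9%, and the SOX letters ACAAAG in 31.9% and 26.5% and ACAATG in 18.5% and 17.2%. The NFI letters TTGGCA were in 15.8% and 21.7%, the MEIS letters TGACAG in 23.0% and 26.3% and the homeodomain letters TAATTA in 11.8% and 13.9%. The regions of cortex and of the other eminences had other leading letters. TTGGCA was in 38.5% of CTX-only regions, and TGACAG in 39.2% of CGE-only and 39.4% of the 66 LGE-only regions. For OTX (TAATCC) the shares were 11.1% and 10.1%, for AP-1 (TGANTCA) 10.4% and 9.83%, for POU (ATGCAAA) 7.75% and 7.61%, for nuclear receptors (AGGTCA) 14.4% and 14.4%, and for TCF/LEF (ATCAAAG) 5.23% and 5.33%. For forkhead (GTAAACA) they were 4.31% and 4.80%, for RFX (GTTGCC) 9.82% and 11.2%, for the CTCF core (AGGGGGC) 4.31% and 5.18%, for GLI (GACCACC) 1.95% and 2.40%, for ETS (CCGGAAG) 1.32% and 1.79%, and for SP (GGGCGG) 5.80% and 7.98%. Matches of TAATTA and TAATCC can overlap, and CAAGTG is itself of the general E-box form CANNTG.

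Which nuclei of the MGE opened these regions was asked by comparing classes of nuclei inside each MGE library. Nuclei were clustered on the 66854 regions called in all 8 samples, which hold no MGE-only region, and 4 of the 9 clusters stayed unnamed. A cluster of 1801 nuclei of MGE replicate 1 and 611 of MGE replicate 2 was named progenitor-like, with 9 of 10 detected progenitor markers raised. The gene with the largest fold in it was Mpeg1, a macrophage gene, while 0 of its 2 detected microglial markers were raised. In all, 3 clusters with 7 or 8 of 10 detected GABAergic markers raised, of 2625 and 1544 nuclei together, were named GABAergic-like, and the immune gene Ctla4 had the largest fold in the smallest of these. The unnamed clusters held 2398 and 1301 nuclei, including a cluster of 724 nuclei with 3.67 times the depth of its samples and a cluster of 72 nuclei with 6 of 7 endothelial and 6 of 7 mural or mesenchymal markers raised, and 30 nuclei were microglial-like. No doublet caller was run, so mixed droplets may remain in the classes. In MGE replicate 1 the MGE-only regions together took 1853 CPM in progenitor-like, 1862 in GABAergic-like and 948 in microglial-like nuclei, and in MGE replicate 2 they took 3224, 3269 and 1075 CPM. The progenitor-like and GABAergic-like sums were thus nearly level, and the microglial-like sums, from 21 and 9 nuclei, were the lowest of the named classes in both libraries.

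Single MGE-only regions nevertheless differed between the classes, in both directions. In the test (edgeR quasi-likelihood on counts summed per library and class, library as a block, p-values adjusted by Benjamini-Hochberg across the 25710 regions tested, threshold 0.05), 968 of the 1550 MGE-only regions that passed the filter on low counts were called, or 62.5%, beside 51.9% of all regions tested. Of these 448 were higher in GABAergic-like nuclei (28.9%, beside 27.7% of all regions tested) and 520 in progenitor-like nuclei (33.5%, beside 24.3%). The direction was the same in both libraries for 1323 of the 1550 tested. For the called regions it was 960 of the 968, which the test on these libraries favours. Agreement of direction was not counted over all regions tested, so it does not set the MGE-only regions apart. The other 191 MGE-only regions had too few counts to pass, and without the filter 1009 of all 1741 were called (58.0%, beside 49.7%). Among called MGE-only regions the median absolute log2 difference was 2.27, with 324 regions more than 4-fold higher in progenitor-like and 280 more than 4-fold higher in GABAergic-like nuclei. These fold figures were not computed over all regions tested, so they do not set the MGE-only regions apart. Scaling to all counts of a class instead of the tested regions moved the median over all regions by 0.34 toward GABAergic-like nuclei and gave 518 regions higher there and 445 higher in progenitor-like nuclei. On that scale the shares higher in GABAergic-like nuclei were 33.4% of MGE-only and 33.8% of all regions. The shares higher in progenitor-like nuclei were 28.7% of MGE-only and 18.8% of all regions, so that gap to all regions remained while the larger side changed. Progenitor-like nuclei were deeper, with a median of 16956 counts against 11849 in MGE replicate 1 and 23897 against 13966 in MGE replicate 2, and the part of depth was not tested. The test rests on 2 libraries, each split in the classes, and without the library as a block 346 were called (22.3%, beside 17.0%).

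The regions with the largest differences had few counts in the other class. CPM here are relative to all counts in peaks of the class. Nebl_1, in an intron of Nebl (chr2:17584127-17584610), had 1.57 and 3.69 CPM in progenitor-like nuclei of MGE replicate 1 and MGE replicate 2 and 0.0749 and 0.0828 CPM in GABAergic-like nuclei, a log2 difference of -5.15 (SE 0.61, edgeR adjusted p = 1.1e-15). Isca2_1 (chr12:84775899-84776753) had 6.03 and 12.1 CPM against 0.450 and 0.166 CPM, a log2 difference of -4.96 (SE 0.38). Both classes were far apart in both libraries. Dzip1l_1 (chr9:99622965-99623463) had 0.957 and 5.01 against 0.0999 and 0.124 CPM, and Mov10l1_1 (chr15:89013375-89013866) had 0.348 and 2.88 against 0 and 0.166 CPM. Id2_1, 118118 bp upstream of the start of the HLH inhibitor gene Id2 (chr12:25215258-25215745), had 3.16 and 3.32 against 0.225 and 0.0828 CPM. These 5 regions were the most progenitor-like of the called MGE-only regions, and Nebl_1, Mov10l1_1 and Id2_1 had 2 counts or fewer in GABAergic-like nuclei of at least 1 library, so their fitted folds depend on the prior count.

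On the other side, Naa20_1 (chr2:145894983-145895609) had 0.999 and 4.55 CPM in GABAergic-like nuclei and 0.0290 and 0.188 CPM in progenitor-like nuclei, a log2 difference of 4.39 (SE 0.66, edgeR adjusted p = 4.1e-10). Plppr1_2, in an intron of the neurite growth gene Plppr1 (chr4:49104911-49105789), had 3.05 and 7.99 against 0.116 and 0.376 CPM, a log2 difference of 4.19 (SE 0.50). Both values of a class again lay on 1 side of both values of the other. Lhx8_1 had 0.524 and 0.455 against 0.0290 and 0 CPM, from 32 counts against 1, a log2 difference of 4.09 (SE 1.09). Kcnmb3_1, at an exon of Pik3ca (chr3:32465989-32466439), had 0.375 and 3.06 against 0 and 0.188 CPM, and Zcchc9_1 (chr13:91797118-91797842) had 2.15 and 8.07 against 0.0580 and 0.563 CPM. Naa20_1, Lhx8_1, Kcnmb3_1 and Zcchc9_1 had 2 counts or fewer in progenitor-like nuclei of at least 1 library, so their fitted folds too depend on the prior count. All 10 regions kept their classes apart within each library, which their choice by the test favours.

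**Figure D4:**
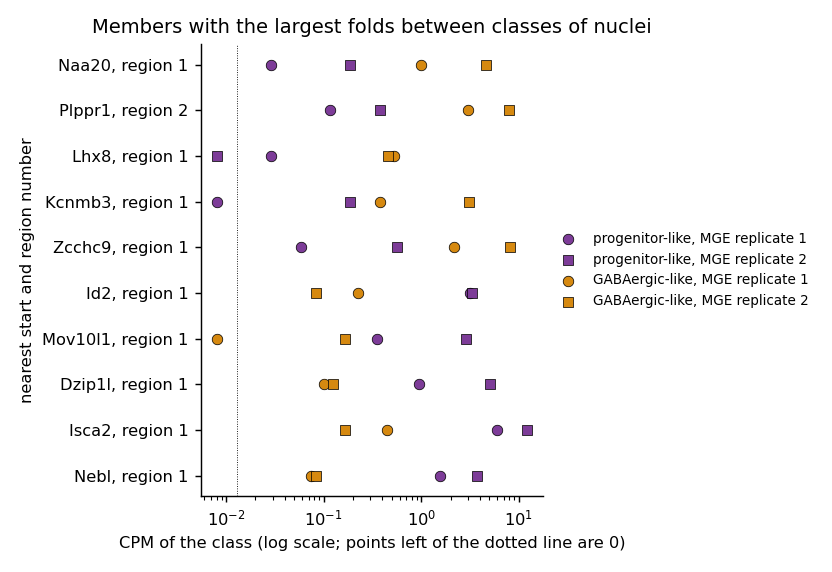
CPM of the class (horizontal axis, log scale, values of 0 set left of the dotted line) for the 10 called MGE-only regions with the largest log2 differences between classes (vertical axis), with progenitor-like nuclei in purple and GABAergic-like nuclei in orange, and circles for MGE replicate 1 and squares for MGE replicate 2. In each row both points of 1 class lie right of both points of the other.

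Of the 23 regions of the MGE list that were tested, 14 were higher in GABAergic-like and 5 in progenitor-like nuclei, beside 27.7% and 24.3% of all regions tested. The markers that named the GABAergic-like clusters included Lhx6, Erbb4, Gad1 and Gad2. They were scored on all MGE peaks over the gene body and 2000 bp before it. MGE-only regions there, such as Gad1_1, entered the naming, so their class directions are not independent of the class names. Of the 6 Lhx8 regions 5 were higher in GABAergic-like nuclei, for example Lhx8_2 with 3.02 and 2.69 CPM there and 0.580 and 0.25 CPM in progenitor-like nuclei (log2 difference 2.36, SE 0.47), and the sixth, Lhx8_6, did not pass (adjusted p = 0.15). Of the 6 Nkx2-1 regions 2 were higher in GABAergic-like nuclei and 1 in progenitor-like nuclei. Nkx2-1_6, upstream of the gene, had 2.06 and 0.939 CPM in progenitor-like and 0.524 and 0.290 CPM in GABAergic-like nuclei (log2 difference -2.22, SE 0.53). Nkx2-1_3 had 2.44 and 0.25 CPM in progenitor-like and 5.74 and 1.86 CPM in GABAergic-like nuclei (log2 difference 1.3, SE 0.40), while Nkx2-1_2, the largest, had 6.06 and 0.689 CPM in progenitor-like and 5.39 and 1.41 CPM in GABAergic-like nuclei and did not pass (adjusted p = 0.75 by edgeR). Sox6_2, Lhx6_1, Otx2_1, Otx2_2, Bcl11b_1 and Prox1_1 were higher in GABAergic-like nuclei, and Nrp1_1, Foxp1_1 and Npas1_1 in progenitor-like nuclei. Of the 3 Erbb4 regions, Erbb4_1 was higher in GABAergic-like and Erbb4_2 in progenitor-like nuclei. Erbb4_3 was called higher in progenitor-like nuclei (edgeR adjusted p = 0.037), with 2.88 against 0.993 CPM in MGE replicate 2 but 0.812 against 0.849 CPM in MGE replicate 1. The 2 tested regions of Sonic hedgehog genes did not pass, with log2 differences of 0.78 for Shh_1 and -0.87 for Ptch1_1. Nor did the 3 tested regions of the genes shared by GABAergic cells, with log2 differences of 1.14 for Dlx1_1, 1.10 for Gad2_1 and -0.42 for Gad1_1. Among the other genes with the most regions, those higher in GABAergic-like and in progenitor-like nuclei numbered 2 and 1 of 5 tested for Auts2 and for Tbc1d22a, 2 and 0 of 4 for Grik3 and for Nrxn3, and 2 and 0 of 3 for Ajap1. They numbered 1 and 1 of 4 for Mbip, 1 and 0 of 2 for Hmgb4 and 0 and 3 of 3 for Tle3, such as Tle3_2 with 5.19 and 5.32 CPM in progenitor-like and 2.22 and 1.37 CPM in GABAergic-like nuclei. Of the 8 regions with the largest overall CPM, 7 were higher in progenitor-like nuclei, beside 24.3% of all regions tested, and regions with more counts pass a test of counts more easily. Slc26a3_1 was higher in GABAergic-like nuclei, with 18.4 and 28.3 against 8.24 and 14.8 CPM (log2 difference 0.71, SE 0.23). Cep83_1 had 29.7 and 34.2 CPM in progenitor-like and 3.72 and 3.64 CPM in GABAergic-like nuclei. The widest region, Dio3_1, was also higher in progenitor-like nuclei, with 17.7 and 5.82 against 4.67 and 0.703 CPM.

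The letters found in the regions differed between the directions. CAAGTG was in 49.6% of the 520 regions higher in progenitor-like nuclei, in 31.9% of the 448 higher in GABAergic-like nuclei and in 34.2% of those tested and not called. In the other regions tested the shares were 24.7% and 20.04%. The homeodomain letters TAATTA went the other way, with 6.15% of the regions higher in progenitor-like and 25.7% of those higher in GABAergic-like nuclei, and this split was close to that of the other regions tested, at 8.23% and 26.4%. The SOX letters ACAAAG were in 42.7% and 22.3%, and in 37.4% and 24.95% of the other regions tested. The splits of the NKX2-type, homeodomain and SOX letters were thus all present in the same direction in the other regions tested. They were narrower there for CAAGTG and ACAAAG, and slightly so for TAATTA. For the other SOX letters, ACAATG, the split was wider there. ACAATG was in 21.2% of MGE-only regions higher in progenitor-like and 18.8% of those higher in GABAergic-like nuclei, beside 23.9% and 17.9% of the other regions tested. The NKX2-type share of MGE-only regions was above that of the other regions in either direction.

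**Figure D5:**
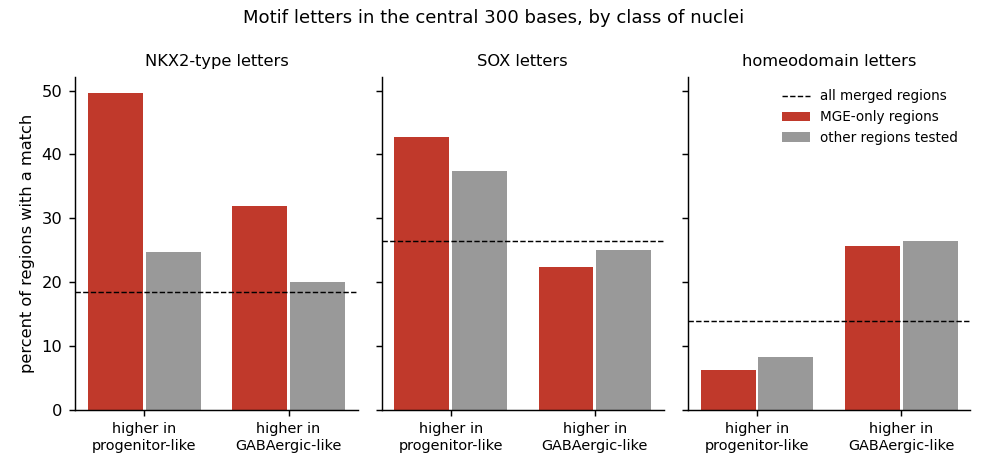
Percent of regions whose central 300 bases hold the NKX2-type letters, the SOX letters ACAAAG or the homeodomain letters (vertical axes), for regions higher in progenitor-like or GABAergic-like nuclei, with MGE-only regions in red, other regions tested in grey and a dashed line for all merged regions. The NKX2-type bars of the MGE-only regions, 49.6% and 31.9%, stand above the grey bars at 24.7% and 20.04%, while the homeodomain bars are close to the grey ones.

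The starts of the genes nearest to MGE-only regions were compared between MGE and the other regions, as a description, since the same samples and contrast chose the regions. Counts in peaks within 1000 bp of starts were tested for MGE against the mean of CTX, LGE and CGE with edgeR and Benjamini-Hochberg adjustment over 15272 genes, of which 0.170% were called, and 0.124% were called higher in MGE. Of the 1319 tested genes nearest to an MGE-only region 6 were called, 5 of them higher in MGE. Nkx2-1 had a log2 difference of 3.87 (SE 0.15, edgeR adjusted p = 0.00012) and Lhx6 of 2.98 (SE 0.12, adjusted p = 0.00012). Lhx8 had 166 and 193 CPM of counts at starts in MGE and 65.1 to 109 in the other samples (log2 difference 1.07, SE 0.13, edgeR adjusted p = 0.038). The others were the predicted gene Gm12830 (log2 difference 1.82), the kinase gene Stk33 (1.02) and 5530401A14Rik, which was lower (log2 difference -2.69). Over all 1319 genes the median log2 difference was 0.02, beside -0.0012 over all genes tested. An unadjusted edgeR p under 0.05 was found for 177 of the 1319, beside 1357 of all 15272. Of the other genes with the most MGE-only regions, Grik3 had 271 and 224 in MGE against 40.2 to 154 and did not pass (log2 difference 1.14, adjusted p = 0.34), and Auts2, with 381 and 344 against 252 to 483, had a log2 difference of 0.05. The count of 6, beside 26 of all 15272 genes, was 2 without MGE replicate 1 (beside 4 of 15689), 3 without CGE replicate 1 (beside 17 of 15694) and 11 without CTX replicate 2 (beside 55 of 15547). It was 1 with an offset for the length covered by peaks (beside 4 of 14311) and 91 with DESeq2 (beside 533 of 15272).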

How the data were processed

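Nuclei of the WT mouse CTX, MGE, LGE and CGE were profiled by droplet single-nucleus ATAC-seq, 2 samples a region. Per the submitters' processing notes, Cell Ranger ATAC 1.2.0 and the build GRCm38 (mm10) were used. The deposited files hold raw counts of cut sites per peak and barcode, with peaks called by the authors in each sample alone and barcodes already filtered, and no cell was removed here. Most counts are even, which fits a count of both ends of each fragment. Samples held 77387940 to 138873845 counts, and intervals and floors cover counting error only. The members and gene lists were chosen with earlier results of these data known.

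Regions were merged and annotated with protein-coding starts of GENCODE M21, with promoters within 1000 bp and genes and distances to starts taken over protein-coding genes unless stated. Sequences are from the GRCm38 reference genome of NCBI RefSeq. Classes of nuclei came from TF-IDF and singular value decomposition over the 66854 regions called in all 8 samples (20 components, the first dropped, 20 neighbours, Leiden resolution 0.5, leidenalg 0.10.2), and a cluster was named where at least 3 markers of a list were raised by a log2 fold over 0.5, the mean over detected markers was at least 0.25, and no other list had as many raised or more genes among the 10 leading ones. Tests used edgeR 4.0.16 (TMM, filterByExpr, quasi-likelihood) in R 4.3.3 with Benjamini-Hochberg adjustment at 0.05, and DESeq2 1.42.0 as an alternative. The SE given beside an edgeR log2 difference is its absolute value divided by the square root of the quasi-likelihood F statistic. It is not a fitted standard error. On simulated counts with 200 changed features, the class test recovered 195 with 10 false calls among 25710, and the gene test recovered 200 with 2 false calls among 15272. On the measured counts the class test called 13355 of 25710 regions, and its accuracy with so many regions called was not tested. Recovery was not split by level or by size of difference, and recovery for MGE-only regions alone was not tested. Their median levels were 0.814 and 1.40 CPM in MGE replicates 1 and 2. Those of regions called in both MGE samples and 2 to 5 others were 1.19 and 1.55 CPM. The smallest absolute log2 difference among called MGE-only regions was 0.71. As the labels do not tie replicates to separate embryos, p-values of the gene test measure the spread between these samples. The class test has the library as a block. Its p-values rest on how the class difference varied between the 2 MGE libraries, with the estimate of spread moderated across regions. In the gene test the groups share 1 estimate of spread, which includes the difference in embryonic age between the CTX samples.

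Regions were named in the text by fixed rules: the 8 with the largest mean CPM, those of the 10 genes nearest to the most regions (ties by summed CPM), up to 12 by CPM nearest to a gene of the lists, the 5 called with the largest log2 difference in each direction, and the 2 widest. The short sites shown for class differences, and Lhx6_1, Erbb4_1, Erbb4_2, Foxp1_1, Npas1_1, Prox1_1, Ptch1_1, Dlx1_1, Gad2_1, Mitf_2, Gm4791, Src, Qk, Tns1 and the start counts of Grik3 and Auts2 beside them, were chosen after values were seen. Alternatives covered the gap and overlap between peaks, the promoter distance, each sample left out, the scaling, filter and tool of each test, the clustering resolution and the sequence window. A region that these rules name, and the list count that rests on it, are not reported here.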

Additional observations from a re-analysis of the deposited data

How the results depend on the processing

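Of the 47 alternatives, 40 were planned and the other 7 were chosen after seeing the data. The number of MGE-only regions was 799 when no peak of another sample lay within 2000 bp, 886 when the MGE peaks overlapped by at least 50% of the longer, 817 with a count in at least 1% of nuclei of each MGE sample, and 1745 to 16757 with 1 sample left out. The share at promoters was 4.54% within 2000 bp, 7.06% with the starts of all annotated genes, and 1.53% to 3.34% with an MGE sample left out. The median CPM was 1.10 as the mean of the MGE samples, and 0.814 and 1.40 in each alone. The class test called 346 of 1550 regions with no replicate block (beside 4369 of all 25710), 728 of 1550 with DESeq2 (beside 9675 of 25710), 1034 of 1672 at the lower clustering resolution (beside 13867 of 26872) and 936 of 1467 at the higher (beside 12902 of 24951). In the class test the block is the library from which both classes come. The gene test called 91 nearest genes with DESeq2 (beside 533 of 15272), 1 with an offset for covered length (beside 4 of 14311), 14 over gene bodies (beside 54 of 16674), and 2 to 11 with 1 sample left out (beside 4 to 55 of all genes). With the replicate block across regions it called 7 (beside 28 of 15272). The labels do not say what a replicate number shares. Correlations of deviations between same-numbered samples were 0.016 for MGE and CGE and 0.118 to 0.294 for the other 5 pairs of regions, and odd counts were 9.54% to 10.4% of entries in replicates 1 and 5.17% to 5.85% in replicates 2, so a shared batch was not settled. The NKX2-type share was 46.5% in 500 bases, 44.1% in regions with a count in at least 1% of nuclei, and 28.0% to 32.5% without MGE replicate 1, MGE replicate 2 or CGE replicate 2. The shares without a sample were taken over 16614, 3090 and 2790 regions of the merge of all 8 samples. These differ from the numbers of MGE-only regions given for the same samples left out. The cause of the changes under these alternatives was not tested. Counts in 2 libraries limit what can be said of single regions, and accessibility in samples without a peak was not measured.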
